A study of Mus musculus with 6 samples.

Results

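Vessel wall genes for the capture of leukocytes were followed in 6 bulk RNA-seq libraries of tdTomato-positive cells sorted from the spinal cords of female mice, 3 from mice with experimental autoimmune encephalomyelitis (EAE) and 3 from mice labelled Control. EAE is a mouse model of multiple sclerosis, in which immune cells leave the vessels of the cord and damage myelin. Every animal carried the alleles NG2-CreERTM, Rosa-tdTomato/+ and Cx3cr1GFP/+: an inducible Cre recombinase under the NG2 promoter, which is active in oligodendrocyte precursors and pericytes, a red reporter that Cre switches on for good, and green fluorescent protein in an allele of a microglial chemokine receptor gene. The sources used here give no age of the mice, no day of EAE and no time of Cre induction. The genes are the 10 rows of the count table, of 38293 in all, whose Ensembl identifiers map to Icam1, Icam2, Vcam1, Sele, Selp, Cd34, Podxl, Mcam, Alcam and Emcn.

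Leukocytes leave blood in steps. Selectins, encoded by Sele and Selp, tether them to the endothelium, and the immunoglobulin family proteins ICAM-1, ICAM-2 and VCAM-1 then hold them by their integrins. VCAM-1 and its integrin partner are the route blocked by natalizumab in multiple sclerosis. MCAM and ALCAM belong to the same protein family and also serve cells other than endothelium. CD34, podocalyxin (Podxl) and endomucin (Emcn) are sialomucins, proteins covered in sugar chains that coat the blood side of vessels. E-selectin, P-selectin, ICAM-1 and VCAM-1 are known as cytokine-inducible, whereas ICAM-2 and the sialomucins mark resting endothelium.

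Total counts ran from 22141522 to 28734798 reads per library. Whether each library stands for 1 animal is not stated, and the p-values here reflect only how far these samples scatter, which may be technical. EAE replicate 3 stood apart from the other EAE libraries, at -100 against -44.1 and -38.3 on the first principal component, and its Malat1 share, 0.935% of reads, was below the 1.94% and 2.62% of EAE replicates 1 and 2. The Control libraries were not uniform either. On the second principal component Control replicate 3 was at -80.5, against 48.2 and 46.4 for Control replicates 1 and 2. Cspg4, the NG2 gene itself, was at 149.7 to 313 CPM in EAE and 337 to 385 CPM in Control (CPM, counts scaled to a library of 1e6 reads). Its difference did not pass the edgeR test used below (adjusted p = 0.0764). The sort used tdTomato and a dead-cell dye, and 16 endothelial markers, none of them among the 10 genes, summed to 411 to 580 CPM in EAE and 1971 to 3099 CPM in Control. Endothelial RNA was thus present in all 6 libraries of a sort made for the NG2 lineage.

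Promoter sequence is shown for both selectins and Icam1, whose reads were most frequent in EAE replicate 3, and for Cd34 and Emcn, which fell in EAE. RefSeq promoter windows on GRCm38.p6 matched 7 of the 10 genes, all but Icam2, Vcam1 and Podxl. The 200 bases from 230 to 31 before the start site are given 5′ to 3′ on the strand of the gene. Capitals mark matches to GGAAATTCC, a palindromic NF-kB element, to TTCNNNGAA, the GAS element, and to TATAAA.
Icam1 (chr9:21015710-21015909, plus strand): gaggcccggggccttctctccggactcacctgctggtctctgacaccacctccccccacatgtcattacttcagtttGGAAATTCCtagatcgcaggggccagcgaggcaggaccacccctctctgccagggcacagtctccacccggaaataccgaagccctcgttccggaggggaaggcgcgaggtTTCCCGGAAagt
Sele (chr1:164048004-164048203, plus strand): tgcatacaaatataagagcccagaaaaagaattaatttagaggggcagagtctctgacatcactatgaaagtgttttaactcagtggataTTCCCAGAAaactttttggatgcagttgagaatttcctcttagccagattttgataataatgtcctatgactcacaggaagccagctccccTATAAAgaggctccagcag
Selp (chr1:164115034-164115233, plus strand): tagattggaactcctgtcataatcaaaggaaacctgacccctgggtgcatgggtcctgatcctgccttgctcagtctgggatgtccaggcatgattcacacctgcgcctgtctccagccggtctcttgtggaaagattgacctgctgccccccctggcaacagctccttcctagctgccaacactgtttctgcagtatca
Cd34 (chr1:194938591-194938790, plus strand): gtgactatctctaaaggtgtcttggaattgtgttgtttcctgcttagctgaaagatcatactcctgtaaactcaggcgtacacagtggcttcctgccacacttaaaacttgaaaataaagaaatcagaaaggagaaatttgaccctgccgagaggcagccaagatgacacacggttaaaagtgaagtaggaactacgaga
Emcn (chr3:137340848-137341047, plus strand): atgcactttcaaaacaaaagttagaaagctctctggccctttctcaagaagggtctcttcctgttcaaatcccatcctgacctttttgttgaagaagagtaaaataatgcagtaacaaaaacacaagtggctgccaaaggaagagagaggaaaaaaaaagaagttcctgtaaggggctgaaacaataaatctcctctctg

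Positions here are counted back from the start site. The Icam1 window held the palindrome at -153 to -145, which 0.237% of 32851 windows of the same length held on either strand. A TTCNNNGAA match stood at -42 to -34 in Icam1 and at -140 to -132 in Sele, against 5.65% of all windows. TATAAA stood at -49 to -44 in Sele, against 8.92%. A wider NF-kB pattern, GGG and CC set 5 bases apart, matched Icam1 at -120 to -111 and Sele at -145 to -136, where it overlaps the TTCNNNGAA match, as well as Mcam. It is frequent, in 39.2% of windows. The Selp, Cd34 and Emcn windows held none of the 4 patterns, which says only that these letters are not in these 200 bases.

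Setting EAE against Control compared the RNA of whole sorted libraries, endothelial RNA included, and not cell type by cell type. Constitutive endothelial molecules were lower in EAE: Icam2 and the sialomucins Cd34, Emcn and Podxl fell. Mcam, which also serves cells other than endothelium, fell to a smaller extent. Of the cytokine-inducible molecules, Icam1 and Vcam1 were not called and their EAE levels were spread widely, and Sele and Selp had reads in EAE and none in Control. By the edgeR quasi-likelihood test with Benjamini-Hochberg adjustment over all genes tested, 5 of the 10 genes were lower, 3 were not called and both selectins were too sparse to be tested. Of all 16966 genes tested, 7.14% were called, with 4.33% lower and 2.82% higher in EAE. The median log2 fold change of the 8 tested genes was -1.19, beside 0.004 over all tested genes.

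**Figure D1:**
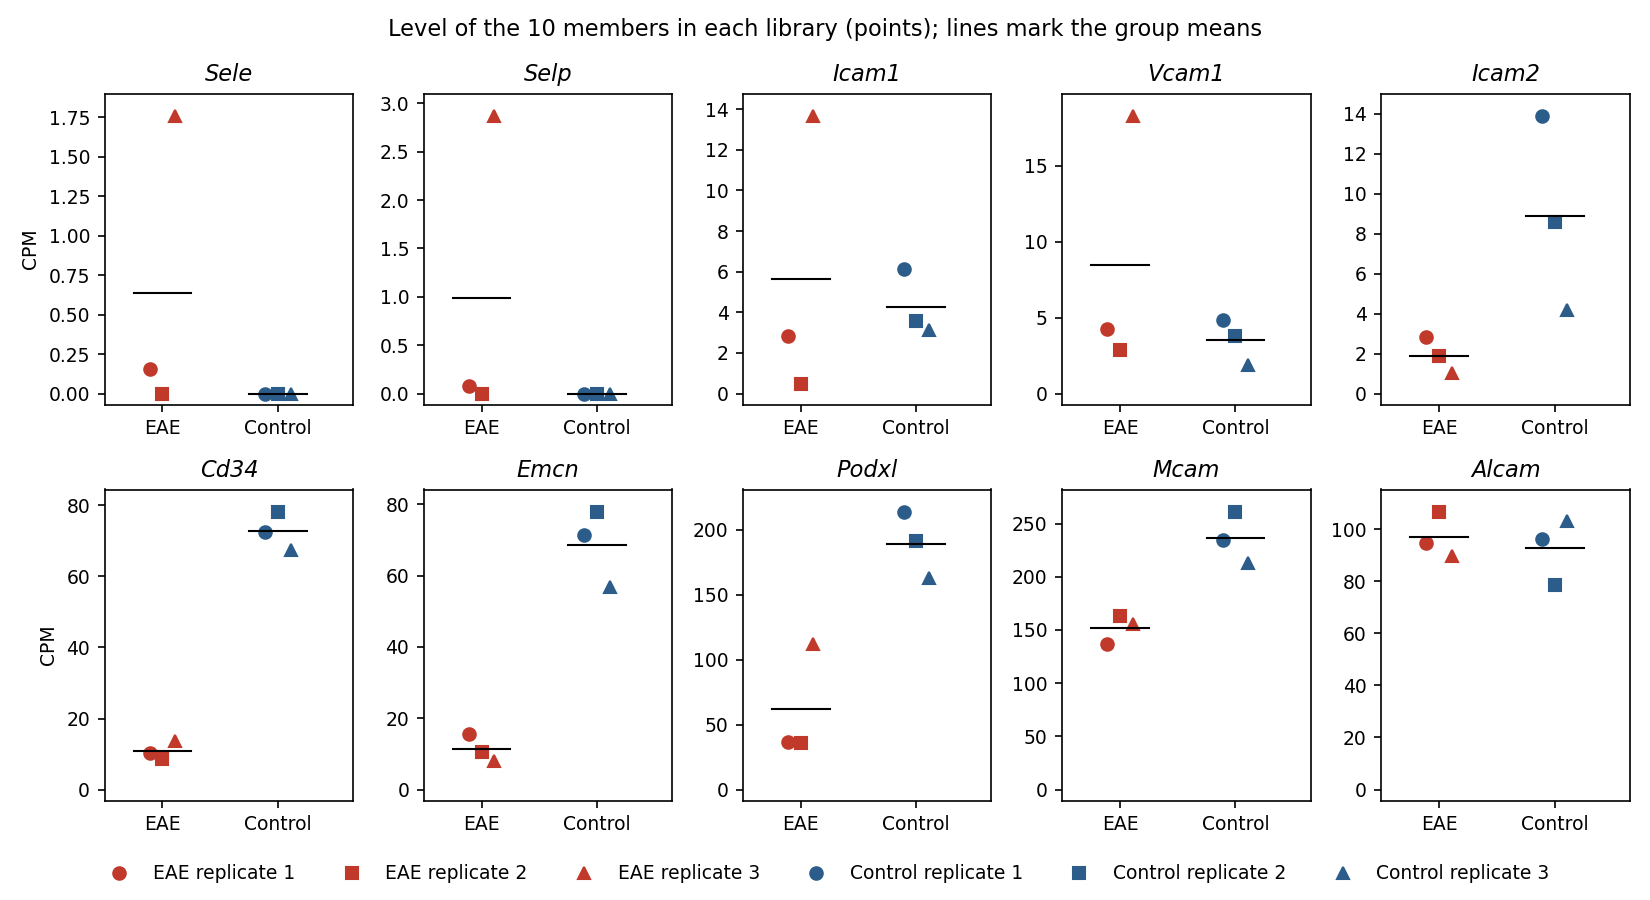
CPM of each of the 10 genes in the 3 EAE libraries (red, left) and the 3 Control libraries (blue, right), with marker shapes for replicates and lines for group means; each panel has its own linear axis. Cd34, Emcn, Podxl, Mcam and Icam2 lie lower in every EAE library than in any Control library, whereas EAE replicate 3 lies above all others for Sele, Selp, Icam1 and Vcam1.

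E-selectin (Sele; ENSMUSG00000026582, chromosome 1, 164048234 to 164057677, plus strand, GRCm38), the endothelial receptor for slow rolling, had 4, 0 and 49 reads in EAE replicates 1, 2 and 3 and 0 reads in each Control library. P-selectin (Selp; ENSMUSG00000026580, chromosome 1, 164115264 to 164150026, plus strand), stored in endothelial and platelet granules, had 2, 0 and 80 reads in EAE replicates 1, 2 and 3 and again 0 in each Control library. EAE replicate 3 thus held 92.5% of the Sele reads and 97.6% of the Selp reads, and EAE replicate 2 had none of either. The 95% Poisson intervals of its counts were 36.3 to 64.8 reads for Sele and 63.4 to 99.6 reads for Selp, which cover counting error only. In CPM the EAE means were 0.637 for Sele and 0.983 for Selp. Set against a floor of 3 reads per Control library, 0.125 CPM, Sele was at least 5.08-fold higher and Selp at least 7.84-fold higher in EAE. These bounds rest on EAE replicate 3 alone, since without it the EAE means lie under the floor. With no filter on low counts the edgeR adjusted p was 0.163 for Sele and 0.168 for Selp. The value of Selp is uncertain because antisense genes overlap 14.1% of its exonic bases and the strand setting of the counting is not given.

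The summed markers of lymphocytes and of myeloid cells were also highest in EAE replicate 3. Platelet and red cell markers summed to 2.40, 40.96 and 5.03 CPM in EAE replicates 1, 2 and 3. In Control replicates 1, 2 and 3 they summed to 3.08, 32.5 and 6.64 CPM. Haemoglobin genes made up most of the largest sum, with Hbb-bs, Hbb-bt and Hba-a1 at 17.5, 13.4 and 8.35 CPM in EAE replicate 2. The sum of this list is therefore no measure of platelets alone. The 9 lymphocyte markers summed to 1.64, 0.418 and 13.8 CPM in EAE replicates 1, 2 and 3. Their Control sums were 0.413 to 0.858 CPM. Cd3e alone was at 9.73 CPM in EAE replicate 3 (271 reads), where Cd3d and Cd3g had 2 and 9 reads. Cd3e, Cd3d, Cd3g, Cd4 and Ms4a1 had no read in Control. Cd8a went the other way, with 19 reads in Control replicate 3 and 0 in EAE, and Cd2 had 15 reads in Control replicate 1. The 12 microglial and myeloid markers summed to 154, 27.3 and 340.5 CPM in EAE and to 22.1 to 28.8 CPM in Control. Of 11 tested, 3 were called higher, Lyz2, Tyrobp and Ptprc. Lyz2 made up most of the sums of EAE replicates 1 and 3, at 94.01 and 236.7 CPM. The microglial gene Tmem119 was lower in every EAE library than in any Control library (means 0.517 and 1.499 CPM, not called). P2ry12 and Cx3cr1 overlapped between the groups. Among the EAE libraries, 7 of the tested markers were highest in replicate 3, whereas Tmem119, Cx3cr1, C1qa and C1qc were highest in replicate 1. The platelet marker Gp9 had no read in any library. Pf4 had 0, 1 and 5 reads in EAE replicates 1, 2 and 3 and 0 in each Control library. Itga2b had 5, 13 and 2 reads in EAE and 7, 12 and 2 in Control. Ppbp had 0, 5 and 0 reads in EAE and 14, 33 and 0 in Control. The part of leukocytes and platelets in the selectin reads was not tested.

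Icam1 (ENSMUSG00000037405, chromosome 9, 21015985 to 21028817, plus strand), the ligand of the leukocyte integrin LFA-1, measured 2.82, 0.452 and 13.7 CPM in EAE replicates 1, 2 and 3 and 6.15, 3.56 and 3.12 CPM in Control replicates 1, 2 and 3. EAE replicates 1 and 2 lay below every Control library and EAE replicate 3 above them all. Its log2 fold change of 0.27 ± 0.90 (SE, here and throughout) did not pass (adjusted p = 0.911), and without EAE replicate 3 it was -1.43 (adjusted p = 0.370). The value of Icam1 is uncertain because an antisense gene overlaps 11.7% of its exonic bases. Vcam1 (ENSMUSG00000027962, chromosome 3, 116109949 to 116129688, minus strand), the ligand of the integrin VLA-4, was at 4.27, 2.89 and 18.3 CPM in EAE and at 4.87, 3.80 and 1.85 CPM in Control. EAE replicates 1 and 2 lay within the Control range, and EAE replicate 3 above it. The log2 fold change was 1.17 ± 0.67 (adjusted p = 0.393), and 0.03 without EAE replicate 3 (adjusted p = 0.990).

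Icam2 (ENSMUSG00000001029, chromosome 11, 106377656 to 106388075, minus strand), a ligand of LFA-1 on resting endothelium, measured 2.82, 1.88 and 1.01 CPM in EAE replicates 1, 2 and 3, against 13.9, 8.60 and 4.20 CPM in Control replicates 1, 2 and 3. All EAE libraries lay below all Control libraries, and the lowest was EAE replicate 3, in which Icam1 was highest. Icam2 fell 4.82-fold (log2 fold change -2.27 ± 0.56, adjusted p = 0.0463). The call of Icam2 was lost without EAE replicate 1, 2 or 3 or Control replicate 1 or 2 (adjusted p 0.0812 to 0.189).

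Among the sialomucins, Cd34 (ENSMUSG00000016494, chromosome 1, 194938819 to 194961279, plus strand), a marker of endothelium and blood progenitors, was at 10.4, 8.49 and 13.6 CPM in EAE and at 72.6, 78.2 and 67.4 CPM in Control. The groups were far apart, at means of 10.8 ± 2.57 CPM in EAE and 72.7 ± 5.42 CPM in Control (SD, n = 3 each), and Cd34 fell 6.99-fold (log2 fold change -2.80 ± 0.19, adjusted p = 5.43e-04). Emcn (ENSMUSG00000054690, chromosome 3, 137341067 to 137432185, plus strand), a mucin of capillary and venous endothelium that hinders leukocyte adhesion, was at 15.7, 10.6 and 7.90 CPM in EAE and at 71.4, 77.9 and 56.7 CPM in Control. It fell 6.18-fold (log2 fold change -2.63 ± 0.28, adjusted p = 0.00152). Cd34 and Emcn were still called whichever of the 6 libraries was omitted. Podxl (ENSMUSG00000025608, chromosome 6, 31519488 to 31563981, minus strand), which encodes podocalyxin, was at 36.5, 36.1 and 112 CPM in EAE and at 214, 191 and 163 CPM in Control. EAE replicates 1 and 2 were alike, while EAE replicate 3 stood between them and Control. Podxl fell 3.25-fold (log2 fold change -1.70 ± 0.39, adjusted p = 0.0337). Its log2 fold change was -2.37 without EAE replicate 3 (adjusted p = 5e-04), and the call was lost without any other library (adjusted p 0.0725 to 0.129), with library sizes alone (adjusted p = 0.0528) and with no filter on low counts (adjusted p = 0.0880).

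Mcam (ENSMUSG00000032135, chromosome 9, 44134469 to 44142727, plus strand), a receptor for vascular laminin found on endothelium, pericytes and smooth muscle, was the most abundant of the 10. It was at 137, 163 and 155 CPM in EAE and at 234, 261 and 212 CPM in Control, so the groups did not overlap and both were tight. Mcam fell 1.60-fold (log2 fold change -0.67 ± 0.15, adjusted p = 0.0331), and the call was lost without EAE replicate 1 or Control replicate 1, 2 or 3 (adjusted p 0.0543 to 0.136). Alcam (ENSMUSG00000022636, chromosome 16, 52248996 to 52454074, minus strand), the ligand of the T cell molecule CD6, was at 94.7, 107 and 89.6 CPM in EAE and at 96.4, 78.7 and 103 CPM in Control. The groups overlapped, with a log2 fold change of 0.02 ± 0.18 (adjusted p = 0.964) that turned to -0.12 when EAE replicate 2 was omitted and to -0.11 when Control replicate 2 was. The CPM ranges of EAE and Control were apart for 5 of the 8 tested genes, all lower in EAE, where 26.6% of all tested genes had ranges apart, 12.4% lower and 14.2% higher. Among the 3 EAE libraries, replicate 3 was the highest for 4 of the 8 and the lowest for 3, where over all tested genes it was the highest for 47.8% and the lowest for 32%.

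**Figure D2:**
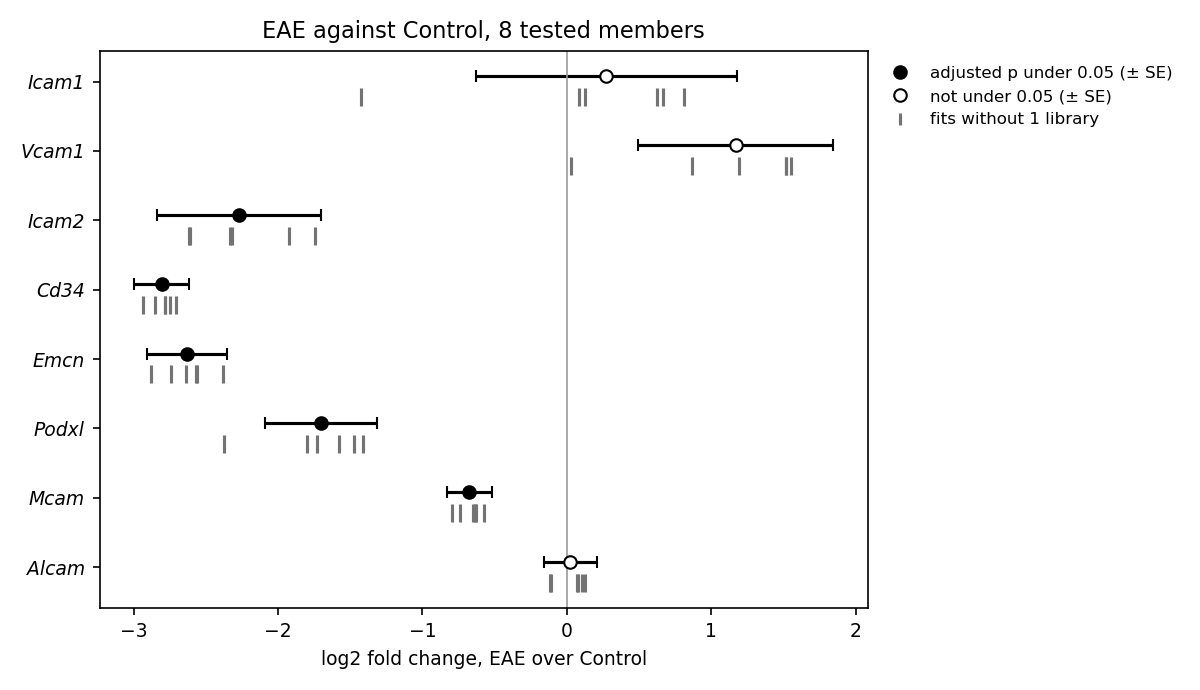
Log2 fold change of EAE over Control with its SE for the 8 tested genes, filled where the adjusted p was under 0.05, and below each the values of the 6 fits that left out 1 library (ticks). The ticks of Cd34 and Emcn stay close to their values of -2.80 and -2.63, whereas those of Icam1 run from -1.43 to 0.81.

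Scaled by gene length (CPM per kilobase, RPKM, with the length deposited for each gene), the order of levels differed between the groups. In EAE, Mcam led at 45.3 ± 3.97 (mean ± SD, n = 3), followed by Alcam at 13.6 ± 1.23 and Podxl at 11.2 ± 8.00, whose ranges overlapped. Cd34, apart from Podxl, came next at 4.13 ± 0.979, then Vcam1, Icam1 and Emcn at 2.50, 2.23 and 2.11, each overlapping its neighbour, and Icam2 at 0.999. In Control, Mcam was at 70.4 ± 7.26, Podxl at 34.5 ± 4.67 and Cd34 at 27.7 ± 2.07, with the ranges of Podxl and Cd34 overlapping. Alcam at 13.0 and Emcn at 12.7 did not differ beyond their spread, and Icam2, Icam1 and Vcam1 followed at 4.67, 1.68 and 1.03, each overlapping the next. The order of Cd34, Icam1 and Vcam1 depends on the length used: with all GENCODE exons, Cd34 came to 1.49 in EAE and 9.97 in Control, Icam1 to 1.30 in EAE and 0.981 in Control, and Vcam1 to 0.957 in EAE and 0.395 in Control.

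The summed level of the 10 genes was 82.6 ± 14.2 RPKM in EAE, against 166 ± 15.6 in Control. Within this sum, Mcam took 55.7 ± 8.00% in EAE and 42.5 ± 2.23% in Control, and Alcam 16.9 ± 3.60% in EAE and 7.95 ± 1.75% in Control. Cd34 took 4.99 ± 0.716% in EAE and 16.8 ± 0.804% in Control, and Emcn 2.69 ± 1.29% in EAE and 7.62 ± 0.567% in Control. Vcam1 held 1.75, 1.10 and 5.47% in EAE replicates 1, 2 and 3, above the 0.369 to 0.821% of the Control libraries. The share of Podxl in EAE replicate 3, 20.8%, was within the Control range of 19.9 to 22.3%. These shares have no test of their own. They rest on the deposited lengths and would change with all GENCODE exons, by which Cd34 lay below Emcn in Control (9.97 against 12.7 RPKM).

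**Figure D3:**
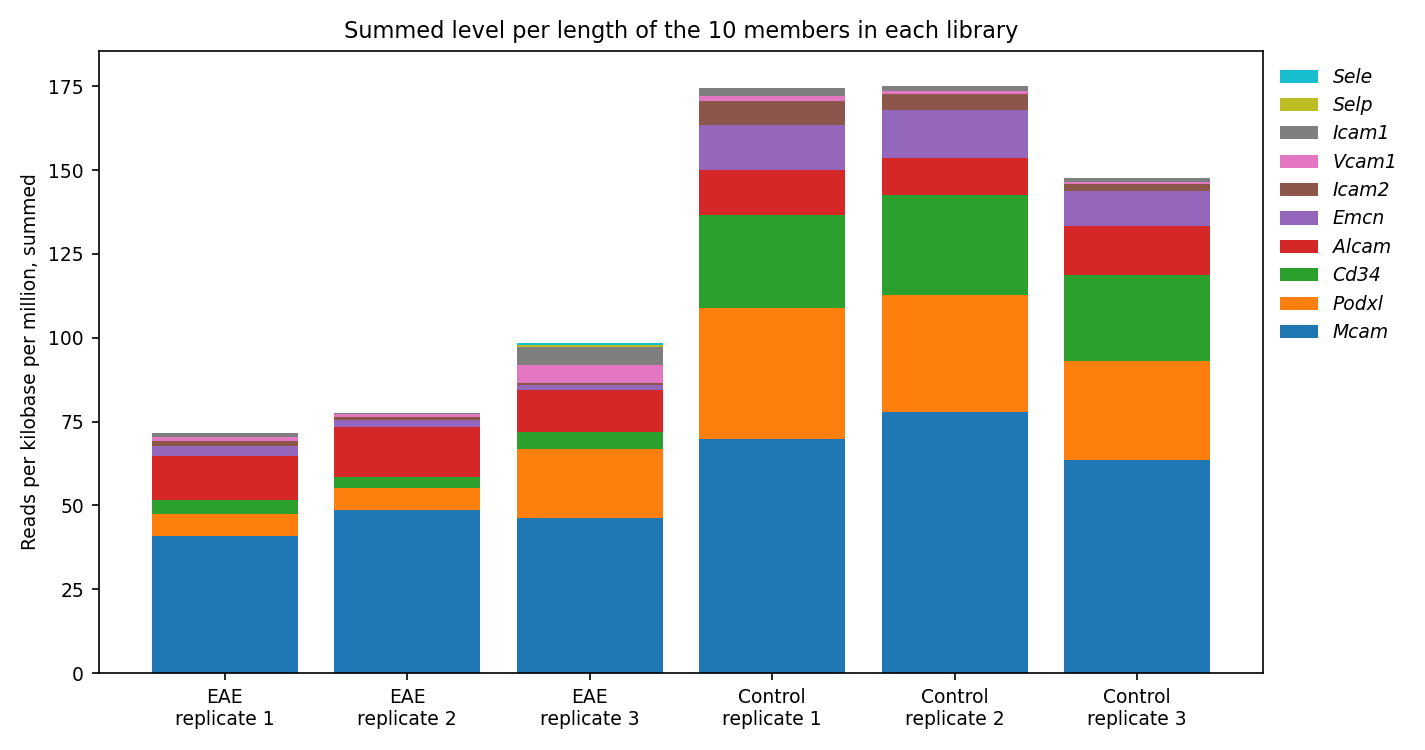
RPKM of the 10 genes by the deposited lengths, stacked, in each EAE library (left 3 bars) and each Control library (right 3 bars). The summed level is lower in EAE, Mcam is the largest layer in every library, and the layers of Vcam1 and Icam1 are broadest in EAE replicate 3.

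The 16 endothelial markers were 5.06-fold lower in summed CPM in EAE, and all 16 were called lower, with a median log2 fold change of -2.46. In bulk libraries fewer endothelial cells, less RNA per cell and other causes of a lower share of the reads cannot be told apart. All 11 pericyte markers and 5 of 7 tested smooth muscle markers were also called lower, at sums of 834 ± 225 CPM in EAE and 5444 ± 1476 CPM in Control for pericytes and of 59.4 ± 17.1 CPM in EAE and 274 ± 124 CPM in Control for smooth muscle. Newly formed oligodendrocyte markers went the other way, with 5 of 6 called higher and sums of 1701 ± 314 CPM in EAE and 724 ± 97.3 CPM in Control. Of 9 oligodendrocyte precursor markers, 2 were called higher, Gpr17 and Vcan, and the median log2 fold change of the list was 0.30. The 9 markers summed to 5274 ± 880.3 CPM in EAE and 3483 ± 727 CPM in Control. Each gene was therefore set against the endothelial sum of its own library, as a log2 ratio. Since that sum was lower by 2.33 on the log2 scale, a gene with equal CPM in both groups is higher by 2.33 in this ratio. Over all tested genes with a read in every library, the median difference was 2.39, and 86.2% of tested genes had EAE ratios above all Control ratios (0.33% below). The 2-sided exact permutation test over samples cannot give a p under 0.1 with 3 against 3 libraries.

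Relative to the endothelial sum, Cd34, Emcn and Icam2 did not stand apart between the groups. The log2 ratio of Cd34 was -5.55 ± 0.28 in EAE and -5.11 ± 0.28 in Control (exact p = 0.2), that of Emcn -5.51 ± 0.46 in EAE and -5.20 ± 0.21 in Control (exact p = 0.5), and that of Icam2 -8.16 ± 0.74 in EAE and -8.30 ± 0.54 in Control (exact p = 0.8). Their ranges overlapped. That of Podxl was -3.99, -3.51 and -2.21 in EAE replicates 1, 2 and 3 and -3.86 to -3.60 in Control (exact p = 0.6), so EAE replicate 1 lay below Control and EAE replicates 2 and 3 above it. For Vcam1 the log2 ratio was -7.08, -7.15 and -4.82 in EAE and -9.31, -9.40 and -10.1 in Control. All 3 EAE libraries lay above all Control libraries, by 9.43-fold on average (exact p = 0.1, the smallest possible). That fold includes the lower endothelial sum, which alone raises a gene with equal CPM by 2.33 on the log2 scale. Without EAE replicate 3 the Vcam1 difference was 2.47, close to the all-gene median of 2.39, which was taken over all 6 libraries. Icam1, at -7.68, -9.83 and -5.24 in EAE and -8.98, -9.50 and -9.30 in Control, overlapped (difference 1.68, exact p = 0.4), and its difference was 0.50 without EAE replicate 3. The ratios of Mcam and Alcam were also apart, with differences of 1.70 and 2.40 (exact p = 0.1 each), below and close to the all-gene median of 2.39. With Benjamini-Hochberg adjustment over the 8 ratios, these 3 exact p-values became 0.267, and a share of 3 of 8 genes apart is under that of all genes. Which cells the reads of these genes came from was not tested.

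**Figure D4:**
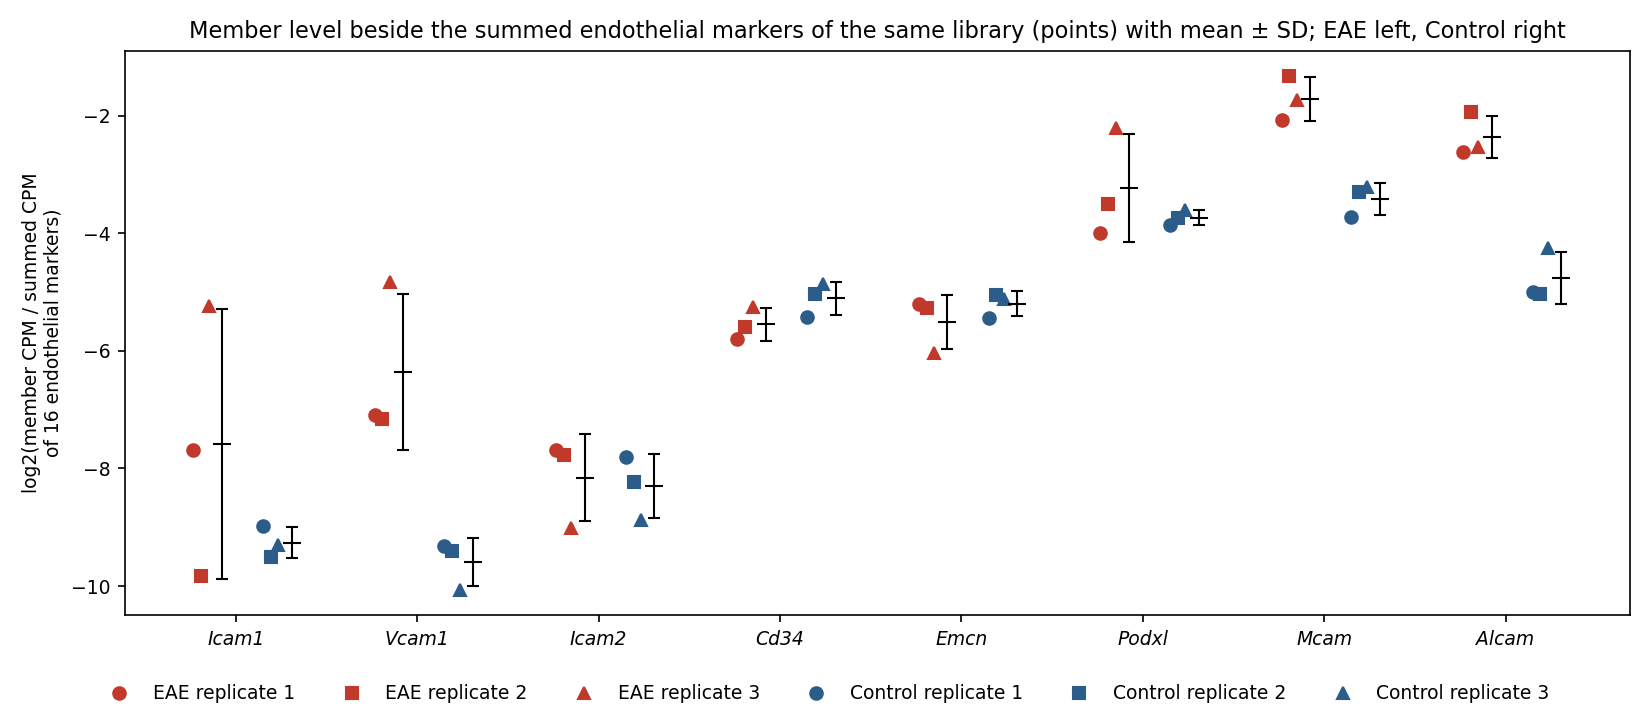
Log2 ratio of each gene's CPM to the summed CPM of 16 endothelial markers in the same library, with EAE (red) left of Control (blue) and bars for mean ± SD. Vcam1, Mcam and Alcam lie higher in all 3 EAE libraries, as do 86.2% of all tested genes, while Cd34, Emcn and Icam2 overlap between groups.

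The other molecules of the leukocyte passage were read from lists of related genes. Of 14 junctional and diapedesis genes, 13 were tested and edgeR called 5 lower in EAE: Cdh5 (vascular endothelial cadherin, 5.62-fold), Esam (5.68-fold), Pecam1 (CD31, 4.68-fold), F11r (JAM-A, 4.27-fold) and Bsg (basigin, 2.98-fold). Pecam1 was at 19.1, 11.8 and 22.4 CPM in EAE and at 104, 75.7 and 57.6 CPM in Control (adjusted p = 0.00291). Jam2 and Jam3, which encode junctional molecules of endothelium and other cells, were not called by edgeR, with Jam3 at 199.9 ± 26.1 CPM in EAE and 131 ± 9.21 CPM in Control (adjusted p = 0.0858 by edgeR and 0.0241 by DESeq2) and an antisense gene over 36.2% of its exonic bases. The call of F11r was lost without EAE replicate 1 or Control replicate 1 (adjusted p 0.0586 and 0.0754). The median of this list was -0.11.

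None of the 7 tested genes of other sialomucins and their cytoskeletal partners was called by edgeR (1 had an unadjusted p under 0.05, and 1 was called by DESeq2 and 0 by limma-voom). Slc9a3r1, the scaffold NHERF1 that ties podocalyxin to ezrin, was at 7.82 ± 5.54 CPM in EAE and 21.8 ± 10.4 CPM in Control (adjusted p = 0.116 by edgeR and 0.0170 by DESeq2), and the sialomucin Cd164 at 108 ± 2.23 CPM in EAE and 105 ± 18.1 CPM in Control. Of 12 enzymes of selectin ligand synthesis, 9 were tested and edgeR called 1, the sialyltransferase St3gal6 (1.93-fold lower, adjusted p = 0.0274). DESeq2 called 2 higher and 2 lower. The sulfotransferase Chst2 measured 170.4, 132 and 418 CPM in EAE and 71.3, 109 and 112 CPM in Control, with EAE above Control throughout (adjusted p = 0.0871 by edgeR and 0.00567 by DESeq2). The sialyltransferase St3gal3 was at 21.4 ± 3.36 CPM in EAE and 10.3 ± 3.92 CPM in Control (adjusted p = 0.109 by edgeR and 0.0292 by DESeq2). The St3gal6 call was lost without any 1 library other than EAE replicate 3 (adjusted p 0.0504 to 0.117) and with library sizes alone (adjusted p = 0.0528), and another gene overlaps 26.0% of its exonic bases. Fut7, a fucosyltransferase for selectin ligands of leukocytes, had 0 reads in Control and at most 0.0381 CPM in an EAE library. Of 5 sheddases that cut adhesion molecules from the cell surface, 3 were tested and edgeR called none (1 had an unadjusted p under 0.05, and DESeq2 and limma-voom called 0).

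Of 12 leukocyte counter-receptors, some of them widely expressed integrins such as Itgb1 (247 ± 19.4 CPM in EAE and 273 ± 24.7 CPM in Control), 9 were tested and edgeR called none, with a median log2 fold change of 1.45. At an unadjusted p under 0.05 there were 4 higher and 1 lower, limma-voom called 0, and DESeq2 called Itgb2 higher and Itga4 lower (adjusted p = 0.00281 and 0.00554). Itgb2, the beta chain of LFA-1, measured 1.18, 0.557 and 14.2 CPM in EAE replicates 1, 2 and 3 and 0.0452 to 0.545 CPM in Control (adjusted p = 0.108), and Itgal, its alpha chain, 0.420, 0.974 and 10.7 CPM in EAE and 0 to 0.744 CPM in Control. Itga4, the alpha chain of the VCAM-1 receptor VLA-4, was at 17.7 ± 9.31 CPM in EAE and 47.5 ± 21.3 CPM in Control (adjusted p = 0.0858), with an antisense gene over 8.04% of its exonic bases. The counter-receptor genes Cd6 and Spn had no read in Control. In EAE replicates 1, 2 and 3, Cd6 had 0, 0 and 3 reads and Spn 0, 1 and 54 reads.

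Of 18 cytokine receptor and NF-kB pathway genes, all tested, edgeR called 3 higher in EAE, Bcl3 and Tnfrsf1b among them, and 0 lower. At an unadjusted p under 0.05 there were 5 higher and 3 lower, DESeq2 called 5 higher and 2 lower, and limma-voom 2 higher and 0 lower. Bcl3, an atypical inhibitor kB protein, was at 9.57, 12.2 and 57.9 CPM in EAE and at 2.22, 3.02 and 1.99 CPM in Control (log2 fold change 3.37 ± 0.65, adjusted p = 0.0171). Its log2 fold change was 2.20 without EAE replicate 3, and it was not called once any 1 Control library was omitted (adjusted p 0.0734 to 0.0908). Tnfrsf1b, a receptor for tumour necrosis factor, rose 4.31-fold (adjusted p = 0.0393) and was called in only 1 of the 6 leave-outs, that of Control replicate 2 (adjusted p 0.0593 to 0.151 in the others). Nfkbia, the inhibitor that NF-kB itself induces, was at 6.97 ± 0.583 CPM in EAE and 12.9 ± 3.54 CPM in Control (adjusted p = 0.0924 by edgeR and 0.0278 by DESeq2). For 16 of these 18 genes the top EAE library was replicate 3. The value of Bcl3 is uncertain, since 6.51% of its exonic bases lie in an antisense gene. Of 13 vascular transcription factors, edgeR called 11 lower and 0 higher (12 lower and 0 higher at an unadjusted p under 0.05 and by DESeq2, 10 and 0 by limma-voom, median -1.95), among them the ETS factors Fli1, Ets1 and Erg (6.04-fold, 4.64-fold and 3.79-fold), Sox17 and Sox18 (10.7-fold and 8.86-fold) and the venous factor Nr2f2 (3.39-fold). Antisense genes overlap 16.9% of the exonic bases of Sox17 and 7.46% of those of Nr2f2.

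**Figure D5:**
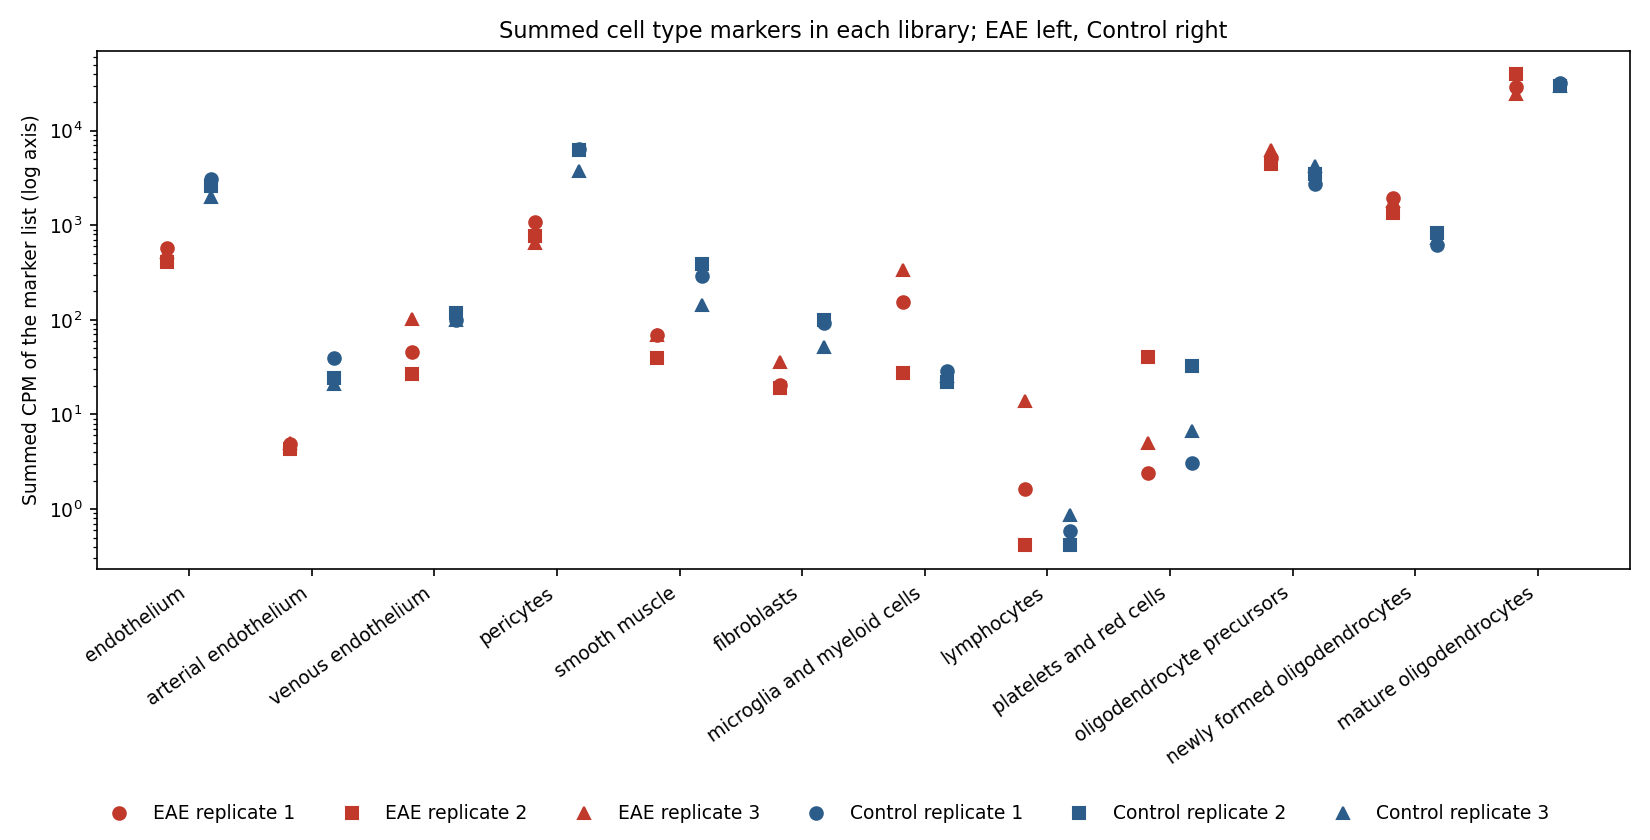
Summed CPM of cell type marker lists in each EAE library (red, left) and each Control library (blue, right) on a log axis. Endothelial, pericyte and smooth muscle sums are lower in all EAE libraries, while the myeloid and lymphocyte sums are highest in EAE replicate 3, at 340.5 and 13.8 CPM. Lyz2 alone gives 236.7 CPM of that myeloid sum.

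The genes most like each of the 10 were taken by the root mean square difference of centred log2 CPM over the 6 libraries, among 8434 named genes with a mean of at least 10 CPM. Nearest to Emcn were Tmem204, Filip1 and Plac9b (0.0597, 0.0862 and 0.132), of which Plac9b may share reads with a near-identical copy, nearest to Cd34 were Cavin1, Cdh5 and Egfl7 (0.205, 0.213 and 0.226), and nearest to Icam2 were Cd248, Rassf3 and Cldn5 (0.155, 0.204 and 0.231). Podxl lay nearest to Gsta4, Plxnd1 and Ly6e (0.141, 0.199 and 0.199). Vcam1 lay nearest to Mvp, Parp14 and Ddx58 (0.222, 0.241 and 0.294), and Icam1 to Vim, Apobec3 and Irf2bpl (0.488, 0.572 and 0.619). Mcam and Alcam lay nearest to Dusp8 and Aurkaip1 (0.0535 and 0.0610).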

How the data were processed

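RNA was measured in 6 libraries, 3 EAE and 3 Control. Per the labels' protocols, tissues were dissociated individually with actinomycin D, which limits transcription during handling, and total RNA was amplified to cDNA (Ovation RNA-seq System V2). The authors deposited raw read counts per gene without scaling. Build mm10 and the tools STAR, featureCounts, FastQC and edgeR 3.24.3 are listed, with no role or order, per the submitters' processing notes. The sources used here give neither the strand setting nor the annotation release nor the treatment of shared reads. A feature length in base pairs was deposited beside the counts. Symbols came from GENCODE M21 (GRCm38) for 94.9% of 38293 identifiers.

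Genes were kept by filterByExpr (minimum count 10, minimum total 15), which left 16966, scaled by TMM factors and tested with the robust quasi-likelihood F test of edgeR 4.0.16 in R 4.3.3, 2-sided, with adjusted p called under 0.05. The SE is the size of the log2 fold change over the square root of F. CPM were computed here from the counts and the library totals. A count of 0 allows up to 3 reads. The fit was run on simulated counts with the same dispersion for every gene. That check does not cover sparse or highly variable genes. Alternatives used other scalings and filters, DESeq2 1.42.0, limma 3.58.1, a replicate block, and each library left out. The members and all gene lists were chosen with earlier results of these data known. Named were all 10 members, up to 6 called genes of each pathway list and the nearest 3 genes of a member with a mean of at least 10 CPM; other named list genes were chosen after their values were seen. Some list genes, 1 of them named by this rule, are not reported here.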

Additional observations from a re-analysis of the deposited data

How the results depend on the processing

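The number of genes called, 1212, was 2162 with DESeq2 and ranged from 440 to 1150 when 1 library was left out, and the number of the 10 members called, 5, ranged from 2 to 4 without 1 library. Cd34 and Emcn were called under all 16 alternatives, Mcam under 11, Icam2 under 10 and Podxl under 8; Icam1, Vcam1 and Alcam were called under none. The log2 fold change of Icam1 turned to -0.62 with limma-voom, where the call of Icam2 was lost (adjusted p = 0.0799), to -0.72 with the replicate block and, with 1 library left out, ranged from -1.43 (without EAE replicate 3) to 0.81, and that of Alcam from -0.12 to 0.13. Deviations of same-numbered libraries correlated at 0.0157, -0.0399 and -0.0336 over all tested genes. Replicate numbers thus showed no general pairing, which does not exclude a pairing that touches only some genes. With the replicate block 818 genes and 3 members were called, without Podxl (adjusted p = 0.0565) and Mcam (adjusted p = 0.0664). With 1 library left out, the difference in log2 ratio to endothelial markers ranged from -0.14 to 0.57 for Icam2, negative without EAE replicate 1, EAE replicate 2 or Control replicate 3, and from -0.0156 (without EAE replicate 3) to 0.88 for Podxl; against pericyte markers that of Emcn turned to 0.0659. The cause of these changes was not tested. Depth limits the selectins, which had 0 to 80 reads per library.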

Other observations

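Among the 5 markers of venous endothelium, the vessels where leukocytes cross, Plvap and Ackr1 had higher mean levels in EAE, although edgeR called neither. These genes were chosen after their values were seen. Plvap, the diaphragm protein of leaky endothelium, measured 2.82, 1.29 and 9.44 CPM in the EAE libraries and 0.117, 0.455 and 0 CPM in the Control libraries (edgeR log2 fold change 4.45, adjusted p = 0.0519, and 0.00018 by DESeq2). Every EAE library lay above every Control library, although the general endothelial markers were lower. Ackr1, the chemokine carrier of venules, was at 3.62, 3.55 and 12.6 CPM in EAE and at 0.935, 4.05 and 1.31 CPM in Control (adjusted p = 0.233), and another gene overlaps 25.7% of its exonic bases. Vwf, the clotting factor stored with P-selectin, was at 23.2, 12.04 and 65.1 CPM in EAE and at 38.4, 55.2 and 57.3 CPM in Control (adjusted p = 0.501), with EAE replicate 3 above every Control library. The amino acid transporter Slc38a5 and Nr2f2 were called lower in EAE (adjusted p = 0.0153 and 0.00477). The 5 arterial markers summed to 4.92, 4.32 and 5.03 CPM in EAE and to 39.5, 24.6 and 21.0 CPM in Control, and 3 of the 5 were called lower.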
